A study of Homo sapiens with 2 samples.

Results

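The G1 cell cycle regulators on the array were cyclin D1 (Ccnd1), CDK4 (Cdk4), E2F1 (E2f1), p21 (Cdkn1a), p27 (Cdkn1b) and the retinoblastoma protein (Rb1), 6 of the 84 genes measured. They were chosen by name, without use of their values, though with earlier results of these data known. Transcript levels came from quantitative PCR on 2 samples of HepG2, an established human hepatoma line with an intact p53 gene. The control was HepG2 without extract, and the other sample was HepG2 exposed for 72 h to MOES, the boiled and filtered aqueous extract of Moringa oleifera seeds. The title of the treated sample gives 5 mg/mL of MOES while the array protocol gives 2.5 mg/mL, and the tables do not settle which was used. Each group held 1 sample, so the values below carry no replicate error and no test was possible. The labels name the manufacturer's human array, whereas the deposited tables write symbols in the mouse form and call the genomic DNA well MGDC. The layout used to name the wells is not given in the sources used here, and the names below are those of the tables.

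In G1, growth signals raise cyclin D1, which binds and activates CDK4. The active kinase phosphorylates the retinoblastoma protein, which then releases E2F1, a transcription factor for the genes of DNA replication. The inhibitors p21 and p27 bind cyclin and kinase complexes and slow this step. Cyclin D1, CDK4 and E2F1 are therefore drivers of G1, and p21, p27 and the retinoblastoma protein are brakes. Much of the control of p27, of the retinoblastoma protein and of cyclin D1 acts on the proteins, which a transcript assay does not see.

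In the human assembly GRCh38.p14, all 6 symbols matched a RefSeq gene. CCND1 lies on chromosome 11 from 69641156 to 69654474 and CDK4 on chromosome 12 from 57747727 to 57752310. E2F1 lies on chromosome 20 from 33675477 to 33686385 and CDKN1A on chromosome 6 from 36676463 to 36687332. CDKN1B lies on chromosome 12 from 12717368 to 12722369 and RB1 on chromosome 13 from 48303751 to 48481890. RefSeq promoter windows were at hand for 5 of the 6 genes, all but CCND1. The 250 bases before the start site are shown for both CDK inhibitors and for CDK4, the driver with the smaller change of the drivers that could be read. They are written 5′ to 3′ on the strand of the gene, with GC boxes (GGGCGG or CCGCCC) and E-boxes (CACGTG) in capitals.
CDK4, chr12:57752311-57752560, minus strand: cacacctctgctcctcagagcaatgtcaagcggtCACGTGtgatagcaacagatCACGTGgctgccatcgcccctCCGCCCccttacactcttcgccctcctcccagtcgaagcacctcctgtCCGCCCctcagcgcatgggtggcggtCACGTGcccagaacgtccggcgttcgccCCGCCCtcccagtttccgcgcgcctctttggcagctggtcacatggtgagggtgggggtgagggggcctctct
CDKN1A, chr6:36678464-36678713, plus strand: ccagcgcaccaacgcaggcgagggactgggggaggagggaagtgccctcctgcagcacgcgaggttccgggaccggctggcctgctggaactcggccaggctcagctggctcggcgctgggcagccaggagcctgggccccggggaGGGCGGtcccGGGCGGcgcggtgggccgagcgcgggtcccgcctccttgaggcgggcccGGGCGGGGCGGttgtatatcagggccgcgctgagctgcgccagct
CDKN1B, chr12:12717118-12717367, plus strand: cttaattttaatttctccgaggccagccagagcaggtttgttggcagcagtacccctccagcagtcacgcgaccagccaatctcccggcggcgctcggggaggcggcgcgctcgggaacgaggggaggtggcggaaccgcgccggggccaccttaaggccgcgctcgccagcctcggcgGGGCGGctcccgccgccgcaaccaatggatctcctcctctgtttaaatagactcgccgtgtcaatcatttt

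Both motifs were searched on both strands. The CDK4 window held 3 GC boxes and 3 E-boxes, the letters bound by MYC among other factors. The CDKN1A window held 4 GC boxes, the last of which overlaps the one before it by 1 base, and the CDKN1B window held 1. Neither inhibitor had an E-box. Over all 35116 windows of this length, 42.6% held a GC box and 6.34% an E-box. The CDKN1A window starts from a site 2251 bases inside the annotated gene, so longer transcripts run across it. The RB1 window belongs to a start site 172699 bases inside the gene, with 0 of either motif, and was not printed. E2F sites (TTTCGCGC or TTTGGCGC, both strands) were found in 0.968% of all windows, and of the 5 windows only that of E2F1 held one. These matches describe letters in the reference genome and carry no information on binding in HepG2.

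The quantity read from each well was the threshold cycle (Ct), the number of PCR cycles needed for the signal to pass a fixed brightness. A later Ct means less template, by a factor of 2 per cycle, and 35 was the highest Ct in the tables, a ceiling. Of the reference genes, B2m, Gusb and Hsp90ab1 differed between samples by at most 0.02 cycles, while Actb and Gapdh reached 35 under MOES, later by at least 0.95 and 6.54 cycles. The 3 reverse transcription controls ran from 31.41 to 32.1 without MOES and stood at 35 with it. The 3 positive PCR controls were at 35 in both. All 59 gene wells of the MOES sample under 35 were whole numbers, against 0 of 78 in the control. In the same MOES sample B2m (23.82), Gusb (25.66), Hsp90ab1 (25.3) and the MGDC well (29.56) kept decimals. How the whole numbers arose is not given. Each MOES gene value below was assumed to be uncertain by 0.5 cycle either way. The spread between single wells, from the 3 reverse transcription controls of the control sample, gave an SD of 0.530 cycles for a difference. It describes wells of 1 assay in 1 sample, not a spread between samples. Of the hepatocyte markers on the array, Agt stood at 33.91 in the control and Nr0b2 at 28.76. The adipocyte markers Adig and Adipoq were earlier there, at 25.1 and 27.37, while Fabp4 was at 29.9 and Lep at 33.89. In the MOES sample the hepatocyte markers were at 35 and 32 and the adipocyte markers between 31 and 32. Different assays amplify differently, so a Ct does not rank the levels of different genes, and the part of these controls and markers in the results below was not tested.

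The drivers showed 1 lower transcript, 1 with little difference and 1 that could not be read. Cyclin D1, the regulatory subunit that growth signals induce, had a Ct of 30.79 without and 32 with MOES. Its level relative to B2m, Gusb and Hsp90ab1 went from 0.0170 to 0.00743 in the authors' table. The log2 fold change of Ccnd1, MOES over control, was -1.20, a 2.30-fold lower level. The lower level was 2.26 times the SD of single-well differences, and the MOES value of 32 was shared with 20 genes outside the G1 set. In a bulk sample, fewer cells that express a gene and less of its RNA per cell cannot be told apart. CDK4, the kinase that cyclin D1 activates, crossed at a Ct of 29.73 in the control sample and at 30 after MOES. Its relative level was 0.0356 and 0.0297, and its log2 fold change was -0.26. The difference for Cdk4 was 0.490 times the SD of single-well differences, so no difference beyond the spread of wells was read for this gene. E2F1, the transcription factor at the end of the pathway, was at the ceiling of 35 in both samples. Its transcript was too late to be read in either, and nothing follows on whether it differed.

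The brakes showed 2 lower transcripts and 1 with little difference close to the ceiling. The retinoblastoma protein, which holds E2F1 inactive, went from a Ct of 25.48 in control cells to 28 after MOES. The relative level of Rb1 went from 0.676 to 0.119. Its log2 fold change of -2.51, a 5.70-fold lower level, was the lowest of the 6 genes and was 4.73 times the SD of single-well differences. p21, the CDK inhibitor that p53 induces, had a Ct of 24.81 in the control, the earliest of the 6, and of 26 in the MOES sample. The relative level of Cdkn1a went from 1.08 to 0.475. Its log2 fold change was -1.18, a 2.27-fold lower level, within 0.02 of that of cyclin D1. p27, the inhibitor that accumulates in resting cells, was read at a Ct of 34.19 in control cells and 34 after MOES. The relative level of Cdkn1b was 0.00161 and 0.00186, with a log2 fold change of 0.20. This was 0.377 times the SD of single-well differences.

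**Figure D1:**
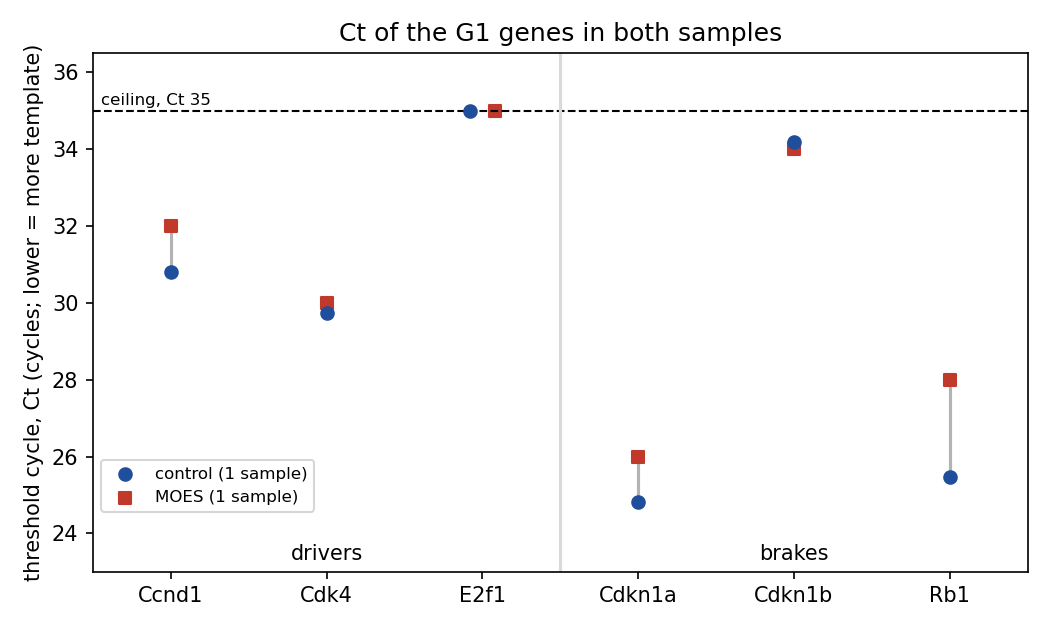
Threshold cycle (Ct, in cycles, lower for more template) of each G1 gene in the control (blue circles) and the MOES sample (red squares), 1 sample each, with the ceiling at 35 as a dashed line. Rb1 shows the widest gap, from 25.48 to 28, E2f1 lies on the ceiling in both samples and Cdkn1b within 1 cycle of it.

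The order of the wells was the same in both samples, namely Cdkn1a, Rb1, Cdk4, Ccnd1, Cdkn1b and E2f1 from the earliest to the latest. In the MOES sample the first 5 stood at 26, 28, 30, 32 and 34, which is 2 cycles apart at each step. In the control the step from Cdkn1a to Rb1 was 0.67 cycles and that from Cdk4 to Ccnd1 was 1.06 cycles. The step from Rb1 to Cdk4 was 4.25 cycles and that from Ccnd1 to Cdkn1b 3.40 cycles. The first of these 4 steps was thus wider in the MOES sample beyond the rounding, and the steps from Rb1 to Cdk4 and from Ccnd1 to Cdkn1b were narrower. With Ccnd1 at 32, the ceiling kept the step from Ccnd1 to Cdkn1b from staying as wide. The step from Cdk4 to Ccnd1 differed by 0.94 cycles, within the rounding. The span from Cdkn1a to Cdkn1b was 9.38 cycles without and 8 with MOES, and with Cdkn1a at 26 the ceiling kept it from staying as wide.

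Against the limits of the study's methods, a fold change below 0.5 or above 1.5, 3 of the 6 genes were below 0.5 (Ccnd1, Cdkn1a and Rb1) and 0 were above 1.5. Over all 84 genes, 67.9% were below 0.5 and 8.33% above 1.5, so the share of G1 genes below 0.5 was no higher than that of the panel. The median log2 fold change of the 6 genes was -0.72 with E2f1 entered at no change, and -1.18 over the 5 genes under 35. That of all 84 genes was -1.77. The ceiling decides which genes could pass the lower limit. Cdkn1b had 0.81 cycles left below 35 in the control, so the lowest fold change it could have shown was 0.574, and E2f1 had none. Of the 4 G1 genes with room to pass, 3 were below 0.5, against 75.0% of the 76 such genes on the array.

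The whole-cycle MOES values touch these calls. With the MOES gene wells 0.5 cycle earlier, the fold change of Ccnd1 was 0.616 and that of Cdkn1a 0.624, both above the limit of 0.5. The fold change of Rb1 was then 0.248 and still below it. This left 1 of the 4 G1 genes with room below the limit, against 63.2% of the 76. Only MOES gene wells under 35 were moved. All 4 of these G1 genes were moved, while array genes at 35 under MOES kept their call. The shares are therefore not on the same footing. With the wells 0.5 cycle later, the fold changes of Ccnd1, Cdkn1a and Rb1 were 0.308, 0.312 and 0.124. For Cdk4 the same steps gave log2 fold changes from -0.76 to 0.24, and for Cdkn1b from -0.30 to 0.70, so neither had a fixed direction within the rounding. Among all 84 genes, with bounds taken as they stand, 27 had a lower log2 fold change than Rb1, 50 lower than Ccnd1, 51 lower than Cdkn1a, 65 lower than Cdk4 and 76 lower than Cdkn1b. The rank of Rb1 lay in the lower part of the panel and those of the other 4 in the upper part.

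**Figure D2:**
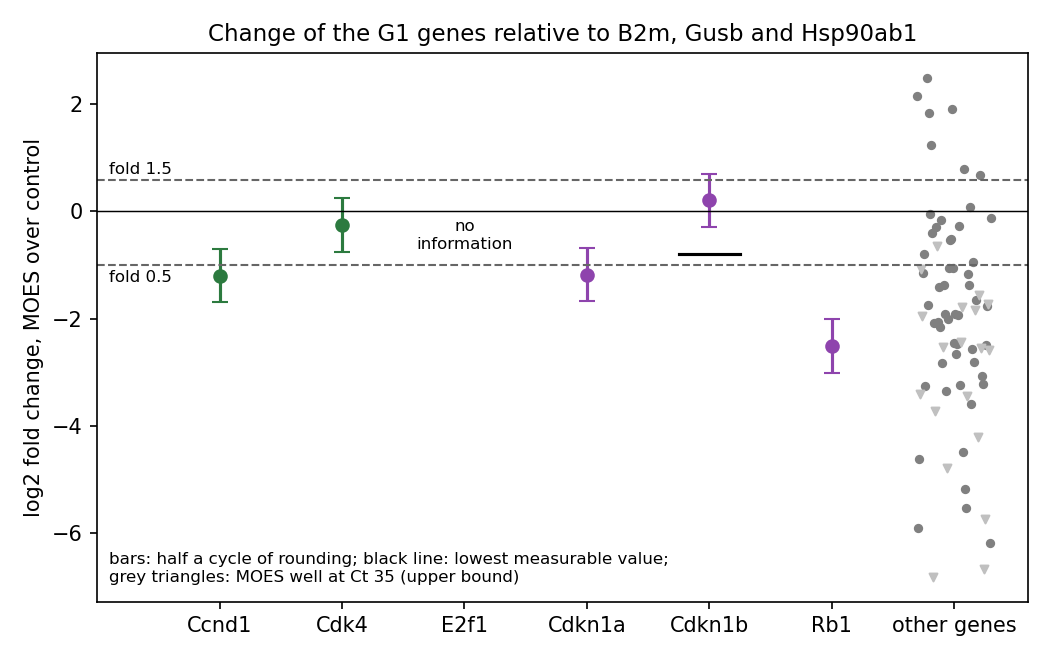
Log2 fold change (MOES over control, relative to B2m, Gusb and Hsp90ab1) of drivers (green) and brakes (purple), with bars for 0.5 cycle of rounding and dashed lines at fold changes of 0.5 and 1.5. The black line marks the lowest value that Cdkn1b could have shown, a log2 fold change of -0.80, and the 73 other genes with information are in grey, triangles being upper bounds with the MOES well at 35. Only Rb1 lies below the lower limit over its whole bar.

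These calls rest on the reference. With the median Ct of the 84 gene wells as reference, the log2 fold changes of Ccnd1 and Cdkn1a were 0.30 and 0.32, above 0, and that of Rb1 was -1.01. With Gapdh alone, all 5 genes under 35 were above 1.5 and Rb1 had a log2 fold change of 4.02. Gapdh itself is bounded by the ceiling, so that shift is a minimum.

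For genes under 35, a comparison of drivers with brakes needs no reference gene, since the reference cancels within a sample. With E2f1 entered at no change, the median log2 fold change of the 3 drivers was -0.26. That of the 3 brakes was -1.18, a difference of 0.92. The difference was 0.45 without E2f1 and 1.11 without E2f1 and Cdkn1b, which lie at or near the ceiling. Of the 9 pairs of a driver and a brake, the 6 without E2f1 could be read. The ratio of cyclin D1 to p21 was nearly the same in both samples. Their Ct differed by 5.98 cycles in the control and by 6 in the MOES sample, a change of -0.02 in the log2 ratio. The ratio of Cdk4 to Rb1 changed most. Cdk4 was 4.25 cycles later than Rb1 in the control and 2 cycles later in the MOES sample, so the log2 ratio was higher by 2.25, or 4.76-fold. Rounding of both MOES wells leaves this change between 1.25 and 3.25. The log2 ratio of Ccnd1 to Rb1 was higher by 1.31, with rounding from 0.31 to 2.31. That of Cdk4 to Cdkn1a was higher by 0.92, from -0.08 to 1.92.

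The ratios to p27 had changes below 0. The log2 ratio of Ccnd1 to Cdkn1b was lower in the MOES sample, with a change of -1.40 and rounding from -2.40 to -0.40. That of Cdk4 to Cdkn1b changed by -0.46, from -1.46 to 0.54. Of the 6 pairs, 3 kept their direction over the whole range of rounding, 2 of them toward the driver and 1 toward the brake. The direction of that 1 pair, Ccnd1 to Cdkn1b, was set by the ceiling. Cdkn1b could not show a log2 fold change below -0.80, while that of Ccnd1 was -1.20, so the pair gives no result on p27. Against the spread between wells, for a pair an SD of 0.750 cycles, the change was 3.00 SD for Cdk4 to Rb1, 1.87 SD for Ccnd1 to Cdkn1b and 1.75 SD for Ccnd1 to Rb1, so of these pairs only the first passed 2 SD. Within the brakes, the log2 ratio of Cdkn1b to Rb1 was higher by 2.71 in the MOES sample, from 1.71 to 3.71, and that of Cdkn1a to Rb1 by 1.33, from 0.33 to 2.33. Within the drivers, that of Cdk4 to Ccnd1 was higher by 0.94, from -0.06 to 1.94. Without the pairs of Cdkn1b, changes of a driver to a brake still ran from -0.02 for Ccnd1 to Cdkn1a to 2.25 for Cdk4 to Rb1. Within the groups, and without E2f1 and Cdkn1b, the change was 1.25 SD for Cdk4 to Ccnd1, within the rounding, and 1.77 SD for Cdkn1a to Rb1. Neither passed 2 SD, so the values do not settle whether drivers and brakes each differed between samples as a uniform group. Rb1 was lower relative to Cdk4, Ccnd1 and Cdkn1a beyond the rounding, and past 2 SD only relative to Cdk4 among these. It was also lower past 2 SD relative to Cdkn1b, but the ceiling set this. Cdkn1b could not show a log2 fold change below -0.80, while that of Rb1 was -2.51.

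**Figure D3:**
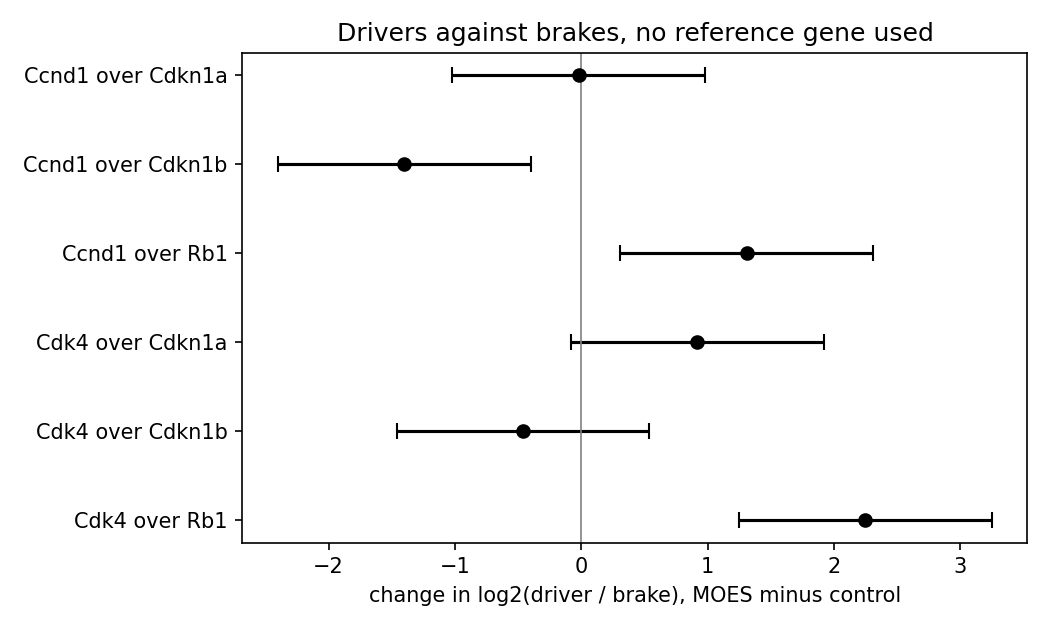
Change in the log2 ratio of each driver to each brake (MOES minus control, x axis) for the 6 pairs without E2f1, with bars for 1 cycle of rounding over both MOES wells. Ratios to Rb1 lie above 0 over the whole bar, Ccnd1 to Cdkn1b lies below 0, and Ccnd1 to Cdkn1a lies at -0.02. With Ccnd1 at a Ct of 32, the ceiling on Cdkn1b forces the ratio of the 2 below 0.

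Of 11 further genes on the array that act on G1, 6 were below 0.5 and 2 above 1.5, with a median log2 fold change of -1.73. Over the whole panel 67.9% were below 0.5 and 8.33% above 1.5, with a median of -1.77. All 11 genes had room to pass the lower limit, as had 76 genes on the array, of which 75.0% were below it. The 54.5% of these 11 genes was no higher than either share. Above 1.5 were 18.2% of the 11. Among 6 inputs to cyclin D1 transcription and G1 entry, 4 (66.7%) were below 0.5 and 2 (33.3%) above 1.5. The WNT ligand Wnt3a was 72.0-fold lower, at a Ct of 27.82 without and 34 with MOES. Tcf7l2, the partner of β-catenin that binds cyclin D1's promoter, was 9.32-fold lower, at 28.77 and 32. Jun, an AP-1 subunit that induces cyclin D1, and the ligand Wnt1 were at 35 in the MOES sample, at least 27.7-fold and 3.32-fold lower. Creb1, the cAMP-responsive factor, was 3.56-fold higher, at 28.82 and 27. The kinase gene Src had a fold change of 1.60, at 31.67 and 31, a difference smaller than a whole cycle. Among 5 factors linked to growth arrest, 2 (40%) were below 0.5 and 0 above 1.5. Foxo1, which induces p27, was 4.47-fold lower, at 29.83 and 32. Vdr, the vitamin D receptor, which induces p21, was 3.39-fold lower, at 31.23 and 33. The other 3 of these genes, Cebpa, Klf4 and Ddit3, had log2 fold changes of -0.79, -0.52 and -0.06. The inputs to cyclin D1 thus spanned log2 fold changes from -6.17 to 1.83, a wider range than the 6 G1 genes. The whole panel, with bounds taken as they stand, ran from -6.81 to 2.48. Only 4 of the 6 G1 genes had room below 35 to pass the lower limit, against all 6 inputs.

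**Figure D4:**
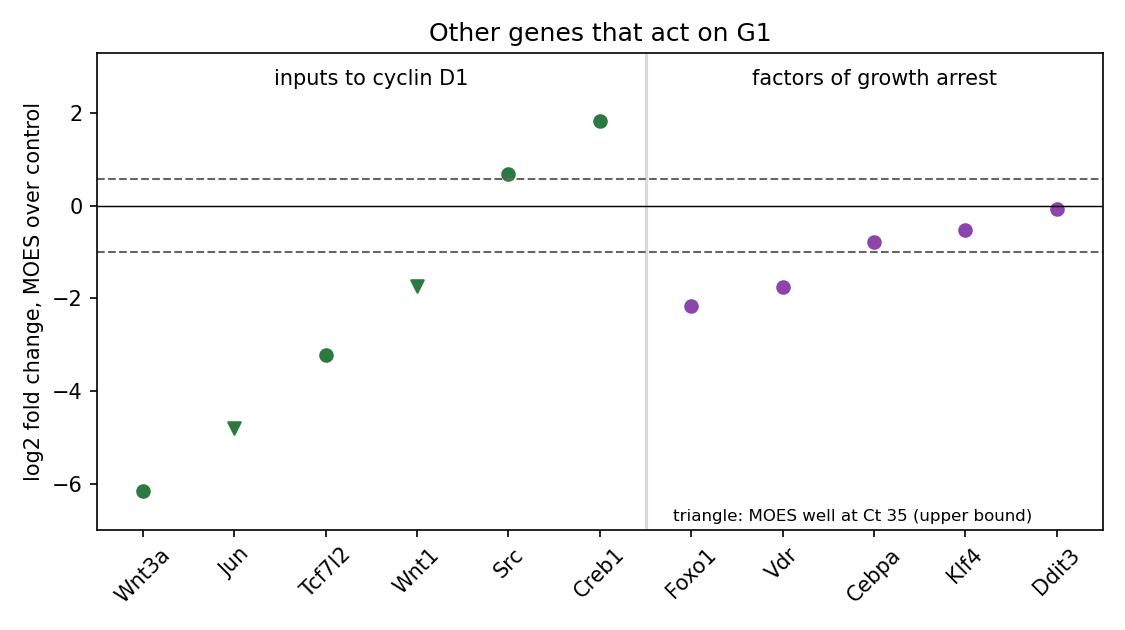
Log2 fold change (MOES over control, relative to B2m, Gusb and Hsp90ab1) of 6 inputs to cyclin D1 (green) and 5 factors linked to growth arrest (purple), 1 sample per group, with dashed lines at fold changes of 0.5 and 1.5 and triangles for upper bounds. Only Creb1 and Src lie above 1.5, and the factors of arrest lie between -2.16 and -0.06.

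Outside the G1 set, the 3 genes nearest to its median of -0.72 were Cebpa at -0.79, Klf3 at -0.53 and Klf4 at -0.52, by the absolute difference in log2 fold change over 2 samples.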

How the data were processed

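Total RNA of 1 control and 1 MOES-treated HepG2 sample was made into cDNA and assayed by SYBR Green PCR on a plate of adipogenesis genes. Per the labels, the manufacturer's web software made the tables. The authors deposited Ct values, headed as averages with no standard deviation and no number of wells, the delta Ct (a log2 scale with reversed sign) and its ratio form, the level relative to the reference genes. Of 31 subsets of the 5 reference genes, B2m, Gusb and Hsp90ab1 gave the deposited delta Ct to within 0.0057 cycles. The authors' fold changes were not used. Columns were matched to samples by name.

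Fold changes were computed as 2 to the minus difference in delta Ct. A gene at 35 in the MOES sample alone gave an upper bound. One at 35 in both entered medians at no change against B2m, Gusb and Hsp90ab1, and moved with any other reference as the other genes did. Bounds assume that the PCR worked in those wells. With 1 sample per group no test was run. The members, lists and alternatives were chosen with earlier results of these data known. Genes named are the 6 members, control wells, listed pathway genes, and the 3 genes nearest in log2 fold change. The calculation was tested on simulated data. Tools were Python 3.11.15, numpy 2.4.6, pandas 2.3.3 and matplotlib 3.10.9.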

Additional observations from a re-analysis of the deposited data

Results flagged for a closer look

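The MGDC well, which checks for genomic DNA and enters no comparison of genes, gave more signal in the MOES sample (Ct 29.56) than in the control (29.9), a log2 fold change of 0.35. The difference was below the SD of 0.530 cycles for single wells. In both samples the MGDC well was under 35 and earlier than Ccnd1 (30.79 and 32) and Cdkn1b (34.19 and 34). It was close to Cdk4 (29.73 and 30), while Cdkn1a and Rb1 were earlier than it in both. Different assays amplify differently, and the part of genomic DNA in the wells of Ccnd1, Cdk4 and Cdkn1b was not tested.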

How the results depend on the processing

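No paired analysis was possible because there was only 1 sample in a group. Over 17 alternatives, 1 of them added after seeing the data, the difference of 0.92 between drivers and brakes was the same under every reference. This followed from the coding, since E2f1, unread in both samples, was moved with each reference like the other genes. Its entered log2 fold change was 1.49 with all 5 reference genes, 0.94 with Actb and 6.53 with Gapdh, and the medians below include it. The difference between drivers and brakes was 0.18 with the MOES gene wells lowered by 1 cycle, which moves every gene under 35 but not E2f1. It ran from 0.45 to 1.11 under the others. B2m, Gusb or Hsp90ab1 alone gave 3 genes below 0.5 and 0 above 1.5. The mean of all 5 reference genes gave 1 below and 2 above, a median of 0.77, and log2 fold changes of 0.29 for Ccnd1 and 0.31 for Cdkn1a. Actb alone gave 1 below, 2 above and a median of 0.22. Gapdh alone gave 0 below, 5 above, a median of 5.81, and 5.33 for Ccnd1, 5.35 for Cdkn1a and 4.02 for Rb1. The median of the gene wells gave 1 below, 2 above, a median of 0.78, and 0.30 for Ccnd1 and 0.32 for Cdkn1a. Shifts with Actb or Gapdh are minima. Rounding the control to whole cycles left 1 gene below 0.5. With the MOES gene wells lowered by 0.5 cycle there were 1 below and 1 above, and by 1 cycle 1 below and 2 above with a median of -0.09. In each setting with 1 gene below 0.5, that gene was Rb1. The ceiling at 35 leaves E2f1 unread and Cdkn1b unable to pass the lower limit.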
